A study of Mus musculus with 6 samples.

Results

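The mitochondrial ribosomal proteins are the nuclear-encoded proteins of the ribosome inside mitochondria, and their mRNA signals were read in alveolar macrophages of Zcchc6+/+ and Zcchc6-/- mice. The members were taken by symbol alone, as every measured gene named Mrpl or Mrps followed by a digit, with pseudogenes left out. This gave 76 of the 25206 genes on the array, 25 of the small subunit, 50 of the large subunit and 1, Mrps36, that is now assigned elsewhere. By the current naming of ribosomal proteins, 43 have a counterpart in the bacterial ribosome and 32 belong only to mitochondrial ribosomes. That naming puts Mrps18a and Mrps18b among the 32, although both descend from bacterial protein S18. Mrps18a and Mrps30 carry small subunit symbols but sit in the large subunit, where they are counted here. Mrpl27 and Mrps18c were not analysed here.

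Mitochondria keep a small genome that encodes core subunits of the respiratory chain, and a dedicated ribosome in the matrix translates those few mRNAs. Its RNAs come from the mitochondrial genome, whereas all its proteins are made in the cytosol and imported. The small subunit decodes the mRNA, and the large subunit forms the peptide bond and is held at the inner membrane, into which the products are inserted. Alveolar macrophages are the resident phagocytes of the airspaces and live on surfactant lipid, which they oxidize in their mitochondria.

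The study asked whether loss of Zcchc6, a cytoplasmic enzyme that adds uridines to the ends of RNAs, alters the basal transcriptome of these cells. Lung lavage cells of unchallenged mice were used, with 3 Affymetrix Mouse Gene ST 2.0 arrays of Zcchc6+/+ and 3 of Zcchc6-/- animals. The study's mice were 8 to 16 weeks old and of both sexes. The Zcchc6-/- line carries a germline deletion of exons 16 and 17, made by crossing a loxP-flanked allele to EIIa-cre mice, with the Cre transgene bred out afterwards, so that every cell type of the animal lacks the exons. The labels number the samples without saying that they came from separate mice, so the p-values measure the spread between these samples, part of which may be technical. No sorting step after lavage is named. All values below are log2 signals made by the Robust Multiarray Average (RMA), which holds 1 value per gene and array and no detection call. A difference of 1 on this scale is a doubling of the signal.

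The targeted gene, Zcchc6, gave 8.72, 8.77 and 8.65 in Zcchc6+/+, against 8.22, 7.69 and 8.13 in Zcchc6-/-. All Zcchc6-/- values lay below all Zcchc6+/+ values, with a log2 fold change of -0.70 (SE 0.15, adjusted p = 0.774 from limma). Where its probes lie relative to the deleted exons was not examined, so this value does not check the deletion itself. The 15 markers of alveolar macrophages were all between 9.13 and 11.68 on average in Zcchc6+/+ and between 8.52 and 11.69 in Zcchc6-/-. The lowest there was the lipid carrier Fabp4, at 8.52 against 9.68. In this list 4 of 15 were at an unadjusted p under 0.05 and 5 (33.3%) were without overlap, compared with 5.03% and 10.2% of all genes. Of the 4, 1 was higher and 3 lower in Zcchc6-/-, and of the 5, 1 was higher and 4 lower. The mean was higher in Zcchc6-/- for 6 of the 15 and lower for 9. Zcchc6-/- replicate 1 stood apart, as its correlations with the rest averaged 0.982 and that average was at least 0.987 for any other array. In that array the 19 T cell markers averaged 2.43 above their Zcchc6+/+ mean, against -0.34 to 0.19 in the other 5 arrays. The mean over Zcchc6-/- was the higher for each of the 19. Cd3e read 8.03 there and 3.96 to 5.14 elsewhere. Xist, transcribed in females only, was low in Zcchc6+/+ replicate 1 (3.78) and Zcchc6-/- replicate 2 (3.27) and 10.04 to 10.73 in the rest, so each genotype held 1 array of low Xist and its arrays were not all from 1 animal.

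Most promoters of the members hold letters recognized by factors known for driving nuclear genes of mitochondrial proteins. RefSeq promoter windows of the build GRCm38.p6, from 250 bases before to 50 after the gene start, were found for 67 of the 76 members. Mrpl4, Mrpl13, Mrpl15, Mrpl19, Mrpl38, Mrpl54, Mrps28, Mrps34 and Mrps35 were not matched. Each window was read on both strands for CCGGAAG, bound by ETS proteins such as GABPA (also called NRF-2). It was also read for GCGCA and GCGC with any 1 base between them, bound by NRF1, and for AAGATGGCG, bound by YY1. Matches of different spellings may share letters where they meet, and a palindromic NRF1 match, found on both strands, was counted as 1 match of its window. They were among 18 spellings whose counts were seen before 6 were kept for description, so their shares are descriptions only.

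The ETS letters were in the windows of 24 members, or 35.8%, against 9.93% of all 27025 genes with a window and 20.5% of the 9382 whose signal was above the array median. The NRF1 letters were in 13 (19.4%, against 5.19% and 11.5%) and the YY1 letters in 8 (11.9%, against 1.64% and 3.75%). At least 1 of the 3 was present in 39 members, or 58.2%, compared with 15.1% of all genes and 31.7% of genes above the median signal. The GC box GGGCGG, bound by SP1, was in 49.3% of member windows, between the 38.2% of all genes and the 67.6% of genes above the median. TATAAA was in 5 member windows and the E-box CACGTG, bound by Myc, in 4. The windows held a median of 21 CpG dinucleotides, the same as genes above the median signal, against 7 over all genes. A match of letters shows neither binding nor control by the factor.

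The ETS letters are shown first in members of both subunits with differing patterns across the arrays, 50 bases each on the gene's own strand, with the matched letters in capitals (CCGGAAG, or CTTCCGG where the match is on the other strand). They lie upstream of the start of Mrpl58 at chr11:115403702-115403751 (plus strand), Mrps18a at chr17:46110954-46111003 (plus), Mrps26 at chr2:130563707-130563756 (plus) and Mrpl34 at chr8:71464867-71464916 (plus). In Mrps26 the match ends 7 bases before the start, in Mrpl58 10, in Mrps18a 19 and in Mrpl34 30 bases before it.
Mrpl58: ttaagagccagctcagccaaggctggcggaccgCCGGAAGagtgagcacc
Mrps18a: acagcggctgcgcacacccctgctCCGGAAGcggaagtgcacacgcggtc
Mrps26: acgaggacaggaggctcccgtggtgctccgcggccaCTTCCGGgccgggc
Mrpl34: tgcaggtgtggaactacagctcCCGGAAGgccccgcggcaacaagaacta

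The NRF1 letters, in capitals and read on either strand, are shown for Mrpl12, which carries the stalk protein, for Mrps21, among the strongest signals, and for Mrpl39 and Mrpl45, which differed widely among the Zcchc6-/- arrays. The stretches are chr11:120484536-120484585 (plus) for Mrpl12, chr3:95871576-95871625 (minus) for Mrps21, chr16:84735340-84735389 (minus) for Mrpl39 and chr11:97315658-97315707 (plus) for Mrpl45. The palindromic form was found in Mrpl39 only among these 4.
Mrpl12: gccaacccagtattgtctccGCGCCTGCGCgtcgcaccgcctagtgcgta
Mrps21: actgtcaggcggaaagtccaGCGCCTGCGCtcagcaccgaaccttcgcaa
Mrpl39: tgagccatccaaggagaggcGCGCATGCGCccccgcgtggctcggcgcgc
Mrpl45: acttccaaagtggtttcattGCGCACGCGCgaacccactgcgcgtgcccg

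The YY1 letters are shown for Mrpl36 (chr13:73330957-73331006, plus) and Mrps11 (chr7:78783002-78783051, plus), the members with a match wholly upstream of the start. Both hold it on the reverse strand, with the capitals marking the match. In Mrps11 the match ends 99 bases before the start. Only 41 bases separate that start from the start of Mrpl46 on the opposite strand, so the match lies downstream of the Mrpl46 start.
Mrpl36: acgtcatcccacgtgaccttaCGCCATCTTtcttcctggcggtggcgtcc
Mrps11: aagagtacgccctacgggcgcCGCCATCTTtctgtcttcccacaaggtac

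Many of these genes also start back to back with a neighbour. A gene on the opposite strand started within 500 bases upstream for 21 of the 67 members, or 31.3%, compared with 10.9% of all genes and 17.9% of genes above the median signal. The partners of members were other mitochondrial genes in some pairs, such as Mrpl43 with Twnk, the mitochondrial DNA helicase, Mrpl47 with Ndufb5, a subunit of respiratory complex I, and Mrps12 with Sars2, the mitochondrial seryl-tRNA synthetase. Mrpl46 and Mrps11 were each other's partner. The whole stretch between the starts is shown for 4 pairs whose genotype values are given below, written on the member's strand with ETS or NRF1 letters in capitals. These are chr7:78783090-78783130 (minus) for Mrpl46 and Mrps11, chr7:28741822-28741967 (minus) for Mrps12 and Sars2, chr19:45006443-45006557 (minus) for Mrpl43 and Twnk, and chr14:57826164-57826238 (plus) for Mrpl57 and Ska3. Only 41 bases separate Mrpl46 from Mrps11, against 146 for Mrps12, 115 for Mrpl43 and 75 for Mrpl57. Between Mrpl43 and Twnk the ETS letters occur at 2 places, and between Mrpl57 and Ska3 the NRF1 letters occur once.
Mrpl46 and Mrps11: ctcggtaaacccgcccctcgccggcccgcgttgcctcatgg
Mrps12 and Sars2: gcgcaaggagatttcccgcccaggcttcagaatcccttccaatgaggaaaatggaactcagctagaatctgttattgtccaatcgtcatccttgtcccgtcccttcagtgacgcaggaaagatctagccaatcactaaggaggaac
Mrpl43 and Twnk: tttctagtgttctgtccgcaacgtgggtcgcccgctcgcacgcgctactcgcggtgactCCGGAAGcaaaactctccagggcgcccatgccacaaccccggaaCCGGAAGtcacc
Mrpl57 and Ska3: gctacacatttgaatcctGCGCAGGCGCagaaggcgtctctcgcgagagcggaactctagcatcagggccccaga

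In Zcchc6+/+ macrophages the members lay well above the typical gene of the array. Their median signal was 6.61, with quartiles at 5.98 and 7.02, against a median of 4.41 over all genes, and 73 of 76 were above that median. The small subunit had a median of 6.71 and the large subunit of 6.60. Probes differ in how brightly they respond, so the order of the signals below is not an order of mRNA amounts. The exceptions below the array median were Mrpl23, Mrps14 and Mrps36.

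The strongest signals belonged to Mrps15 (8.97 ± 0.10, SD, n = 3), a protein bound to the rRNA of the small subunit, and to Mrpl24 (8.64 ± 0.12, SD, n = 3), a large subunit protein whose Escherichia coli counterpart starts assembly of that subunit. Mrps18b (8.42 ± 0.05, SD, n = 3), Mrps6 (8.41 ± 0.04, SD, n = 3) and Mrps21 (8.37 ± 0.19, SD, n = 3), all of the small subunit, followed and did not differ from one another beyond their spread. Mrps18b and Mrps18a are paralogs that both descend from bacterial protein S18 yet occupy different subunits, and Mrps18a read 6.83 ± 0.07 (SD, n = 3). Mrpl12, the stalk protein that recruits translation factors, read 7.49 ± 0.14 (SD, n = 3), and Mrps12, which lines the decoding site, read 6.92 ± 0.16 (SD, n = 3). Mrpl58, a peptidyl-tRNA hydrolase built into the large subunit that can free stalled ribosomes, was the strongest of the 22 large subunit proteins found only in mitochondria (7.77 ± 0.16, SD, n = 3).

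The weakest signals were those of Mrpl23 (3.48 ± 0.77, SD, n = 3), at the exit of the peptide tunnel, Mrps14 (3.70 ± 0.13, SD, n = 3) and Mrps36 (3.71 ± 0.61, SD, n = 3). Mrps36 is now known as a subunit of the 2-oxoglutarate dehydrogenase complex rather than of the ribosome. These 3 did not differ from one another beyond their spread. Mrps10 (4.44 ± 0.34, SD, n = 3) and Mrpl28 (5.01 ± 0.12, SD, n = 3) came next. Without detection calls it is unknown whether the probes of the weakest members measured their mRNA at all. All 32 members found only in mitochondrial ribosomes were above the median of the array, the lowest being Mrpl46 at 5.13.

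**Figure D1:**
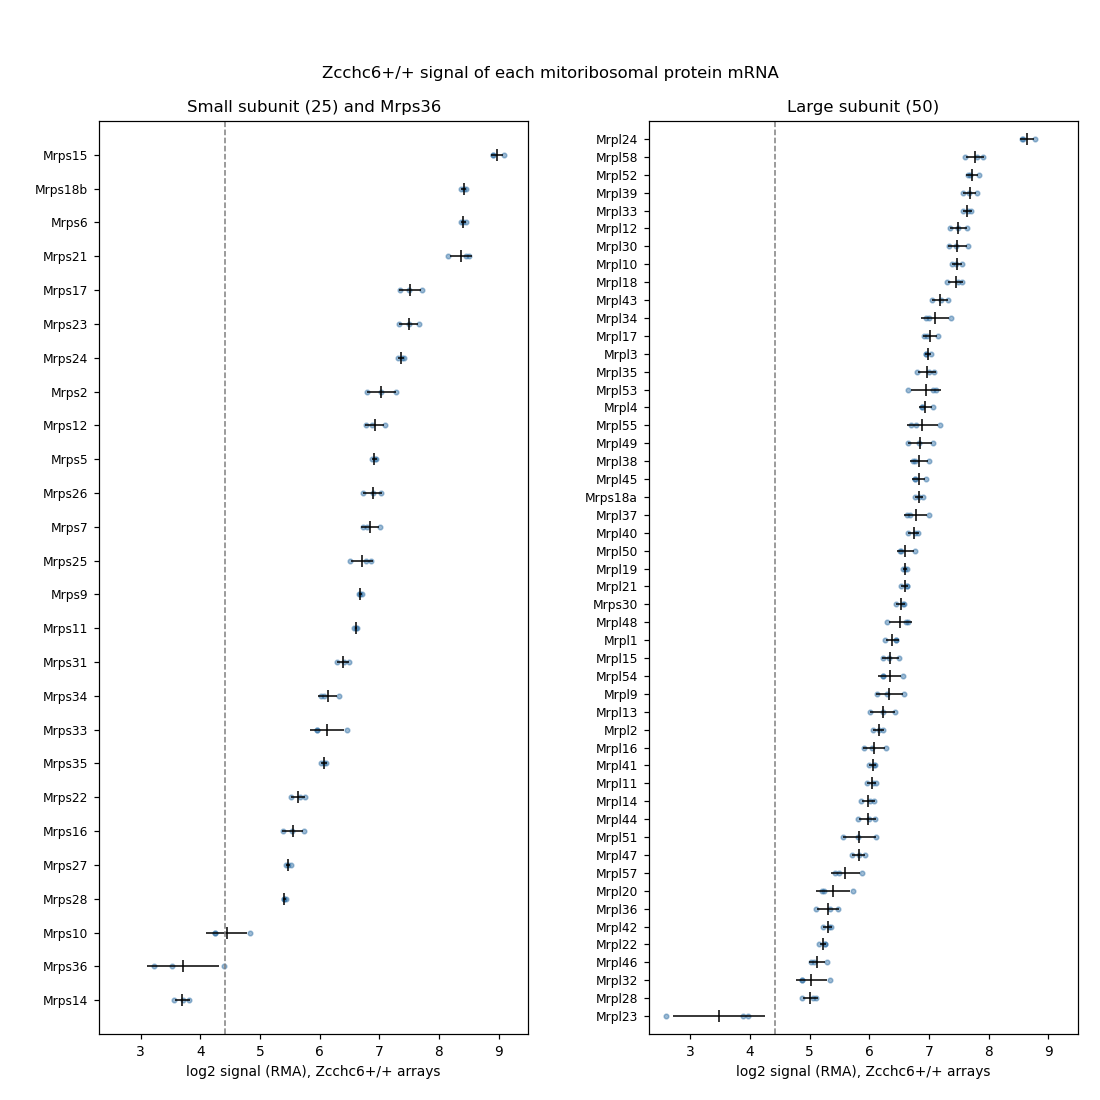
Signal of the 76 members in the 3 Zcchc6+/+ arrays (dots), with mean (vertical tick) and SD (bar), on the log2 RMA scale; the small subunit with Mrps36 is on the left and the large subunit on the right. The dashed line is the median of all genes at 4.41, and only Mrpl23, Mrps14 and Mrps36 have means below it.

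No member differed between genotypes past the threshold. Over all 25206 genes 0 passed an adjusted p of 0.05 in limma (0% of genes, 0 members), and the adjusted p of the members ran from 0.993 to 0.999. At an unadjusted p under 0.05 the count was 0 of 76 members, with 5.03% of all genes below that value (2.5% higher and 2.53% lower in Zcchc6-/-). The members' log2 fold changes, Zcchc6-/- minus Zcchc6+/+, had a median of -0.012, against -0.0063 over all genes, and ran from -0.28 (Mrpl46) to 0.30 (Mrps33). They were within 0.1 of zero for 42 members and beyond 0.2 for 11. The mean was higher in Zcchc6-/- for 36 members and lower for 40, so that 47.4% were higher, next to 48.2% of all genes. The SD within genotypes exceeded the size of the difference in 56 of 76. In bulk samples a smaller number of cells of a type and less RNA per cell cannot be told apart.

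A p that misses the threshold does not show that values did not differ, so the intervals bound what could have gone unseen. The 95% interval of the log2 fold change reached 0.30 to either side at the median, from 0.21 to 1.04. It lay within a 1.5-fold change either way for 66 members (86.8%), compared with 77.1% of all genes and 81.9% of genes above the median signal. Within 2-fold it lay for 74 (97.4%), compared with 96.4% and 97.1%. Within 0.32 of zero on the log2 scale, a narrower bound, it lay for only 16 members (21.1%), compared with 18.0% and 23.4%. The intervals of Mrpl23, Mrpl32, Mrpl34, Mrpl46, Mrpl49, Mrps2, Mrps10, Mrps14, Mrps33 and Mrps36 reached past 1.5-fold, and those of Mrpl23 and Mrps36, among the dimmest and most variable, past 2-fold. These bounds were chosen after the values were seen.

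**Figure D2:**
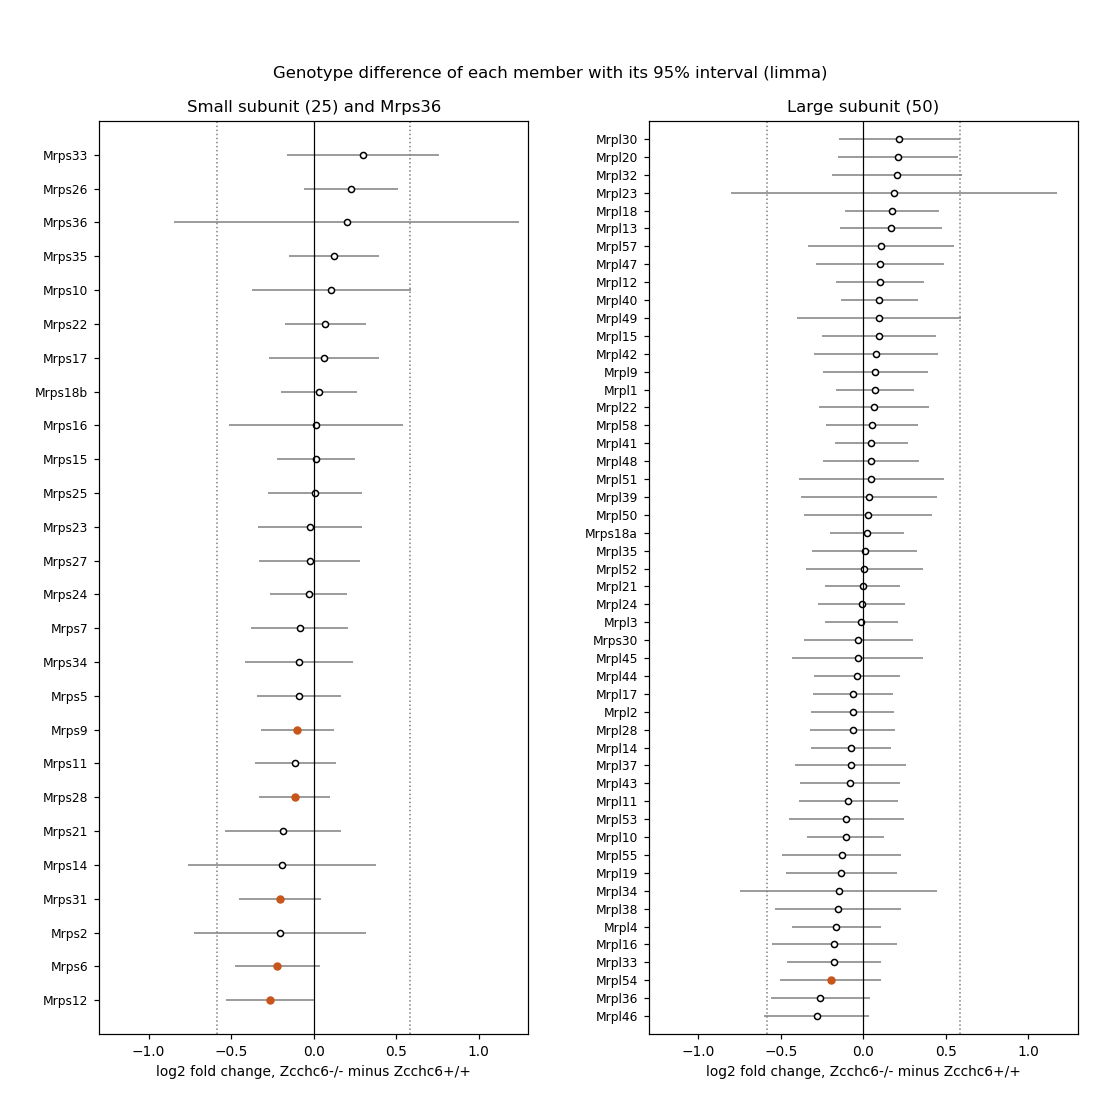
Log2 fold change of each member between genotypes (circle) with its 95% interval from limma (bar), small subunit and Mrps36 left, large subunit right; dotted lines mark a 1.5-fold change. Filled circles are the 6 members whose genotypes did not overlap, all of them lower in Zcchc6-/-, and 66 of the 76 intervals stay inside the dotted lines.

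In 6 of 76 members, or 7.89%, the 3 Zcchc6-/- values did not overlap the 3 Zcchc6+/+ values, compared with 10.2% of all genes. All 6 were lower in Zcchc6-/-, where 5.15% of all genes were lower without overlap, and 5 of them were of the small subunit. They were Mrps6, Mrps9, Mrps12, Mrps28, Mrps31 and, from the large subunit, Mrpl54. An exact permutation test of 3 arrays against 3 cannot give a two-sided p below 0.1, so no separation of these values could pass 0.05 by itself.

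Of the 4 classes by subunit and origin, the small subunit proteins with a bacterial counterpart leaned most to one side. In this class 11 of 15 had a lower mean in Zcchc6-/-, and the median log2 fold change was -0.098. Without overlap were 4 (26.7%), all lower in Zcchc6-/-, compared with 5.15% of all genes. Leaving out each array in turn, 11 to 13 of the 15 had a lower mean and the median ran from -0.11 to -0.080. Over all genes the share with a lower mean was 51.8%, and 50.6% to 53.6% with an array left out. This class was picked out after its values were seen, its difference from the other classes was not tested, and no single member passed the threshold. The fits with an array left out reuse the arrays by which it was picked, so they are no separate support for the lean.

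Mrps12, whose bacterial counterpart is the streptomycin-resistance protein S12, read 6.89, 7.10 and 6.78 in Zcchc6+/+ against 6.64, 6.65 and 6.69 in Zcchc6-/-. The Zcchc6-/- arrays were close together and all below the lowest Zcchc6+/+ array. The log2 fold change was -0.26 (SE 0.11, adjusted p = 0.993 from limma), or 0.833-fold, with a 95% interval of -0.53 to 0.003 and the smallest p of any member. Its head-to-head neighbour Sars2 had a log2 fold change of 0.039 (SE 0.10), and the stretch between their starts is printed above.

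Mrps6, whose bacterial counterpart pairs with S18 on the platform of the small subunit, read 8.37, 8.40 and 8.46 in Zcchc6+/+ against 8.23, 8.30 and 8.03 in Zcchc6-/-. The Zcchc6+/+ arrays agreed closely, and the gap to the nearest Zcchc6-/- array was 0.070. Its log2 fold change was -0.22 (SE 0.11).

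Mrps28, the mitochondrial relative of bacterial protein S1, read 5.43, 5.40 and 5.40 in Zcchc6+/+ against 5.32, 5.27 and 5.30 in Zcchc6-/-, with the smallest spread of these 6 members. Mrps9, whose bacterial counterpart reaches toward the tRNA in the peptidyl site, read 6.66, 6.68 and 6.71 against 6.65, 6.55 and 6.55. In Mrps9 the groups were separated by 0.012 only, as Zcchc6-/- replicate 1 lay next to the Zcchc6+/+ arrays. The log2 fold changes were -0.12 (SE 0.092) for Mrps28 and -0.098 (SE 0.094) for Mrps9.

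Other proteins of this class overlapped between genotypes. Mrps11, the partner of Mrpl46, read 6.62, 6.63 and 6.58 in Zcchc6+/+ against 6.63, 6.39 and 6.47 in Zcchc6-/-, a log2 fold change of -0.11 (SE 0.10). Mrps21 read 8.15, 8.46 and 8.50 against 8.36, 8.25 and 7.95, with Zcchc6-/- replicate 3 the lowest of the 6 arrays. Mrps2 read 7.03, 6.80 and 7.28 against 6.40, 7.24 and 6.86, where Zcchc6-/- replicate 1 alone lay below every Zcchc6+/+ array. Mrps15, the strongest signal, differed by 0.014 (SE 0.10) with all its arrays between 8.91 and 9.08. The remaining log2 fold changes were -0.19 for Mrps14, -0.088 for Mrps5, -0.084 for Mrps7, -0.031 for Mrps24, 0.015 for Mrps16, 0.061 for Mrps17 and 0.11 for Mrps10.

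The 10 small subunit proteins found only in mitochondria were Mrps18b, Mrps22, Mrps23, Mrps25, Mrps26, Mrps27, Mrps31, Mrps33, Mrps34 and Mrps35. Of these, 6 had a higher and 4 a lower mean, and the median log2 fold change was 0.021. Mrps31 was the 1 without overlap, at 6.41, 6.29 and 6.49 in Zcchc6+/+ against 6.11, 6.28 and 6.19 in Zcchc6-/-, where Zcchc6-/- replicate 2 came within 0.010 of the lowest Zcchc6+/+ array. Its log2 fold change was -0.20 (SE 0.11).

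Mrps26 and Mrps33 lay on the other side. Mrps26 read 6.72, 7.03 and 6.90 in Zcchc6+/+ against 7.17, 6.99 and 7.18 in Zcchc6-/-, overlapping through replicate 2 of both genotypes (log2 fold change 0.23, SE 0.12). Mrps33 had the largest positive log2 fold change of the members, 0.30 (SE 0.20), but read 6.45, 5.95 and 5.96 against 6.08, 6.52 and 6.64, so that Zcchc6+/+ replicate 1 was above Zcchc6-/- replicate 1. Mrps18b, by contrast, differed by 0.033 (SE 0.099) with all 6 arrays between 8.37 and 8.54.

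**Figure D3:**
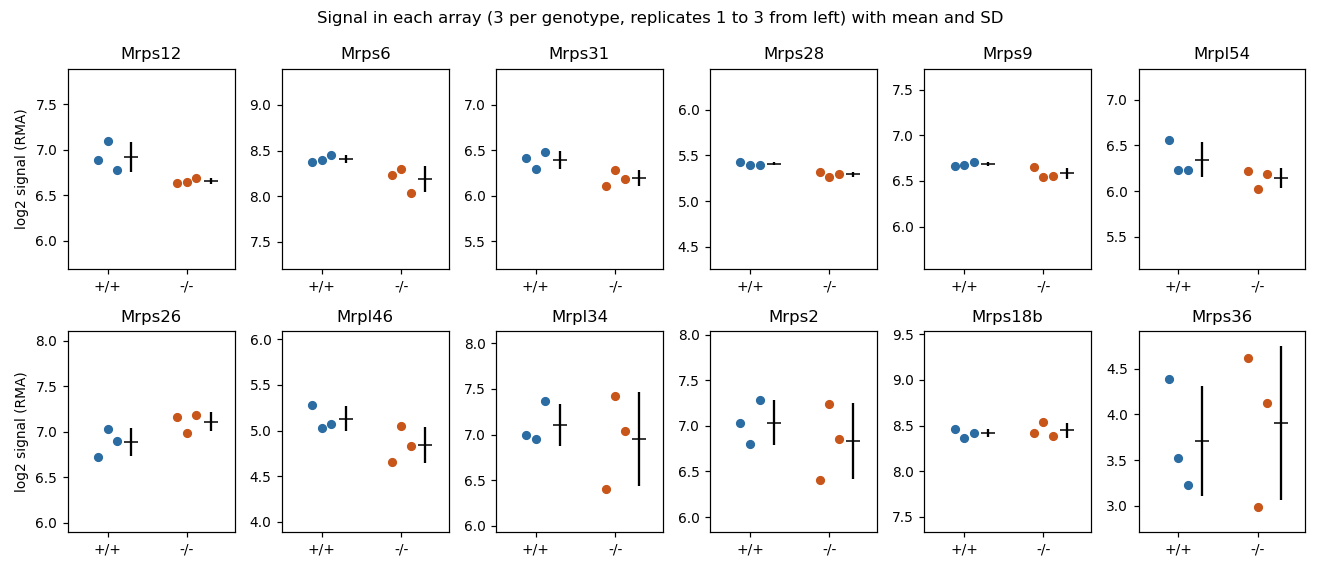
Log2 RMA signal of 12 members in each array, Zcchc6+/+ in blue and Zcchc6-/- in orange, with replicates 1 to 3 from left to right. The mean and SD are beside them, and all panels span the same width of log2 signal. The first 6 panels are the members without overlap, all lower in Zcchc6-/-, while in Mrpl34 and Mrps2 Zcchc6-/- replicate 1 is the lowest array (6.40 in both).

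The 28 large subunit proteins with a bacterial counterpart, Mrpl1 to Mrpl4, Mrpl9 to Mrpl24, Mrpl28, Mrpl30, Mrpl32 to Mrpl36 and Mrpl47, were split evenly. Their mean was higher in 13 and lower in 15, the median log2 fold change was -0.0067 and 0 were without overlap. Mrpl36, whose bacterial counterpart is a very short protein of the large subunit, read 5.11, 5.47 and 5.34 in Zcchc6+/+ against 5.04, 5.17 and 4.93 in Zcchc6-/-. Only Zcchc6-/- replicate 2 lay above the lowest Zcchc6+/+ array, and the log2 fold change was -0.26 (SE 0.13). Mrpl12 read 7.49, 7.35 and 7.64 against 7.64, 7.51 and 7.63, a difference of 0.10 (SE 0.11) with overlapping groups.

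Mrpl34, in the bacterial ribosome a short protein of the large subunit, was among the members with the widest spread. It read 7.00, 6.95 and 7.37 in Zcchc6+/+ against 6.40, 7.42 and 7.04 in Zcchc6-/-, so that the same genotype held both its highest and its lowest array. The log2 fold change was -0.15 (SE 0.25), and without Zcchc6-/- replicate 1 it was 0.13. Mrpl23 read 3.96, 2.59 and 3.89 against 3.52, 3.15 and 4.32, below the median of all genes, with a log2 fold change of 0.19 (SE 0.42). Mrpl24 and Mrpl28 differed by -0.010 (SE 0.11) and -0.065 (SE 0.11).

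Among the 22 large subunit proteins found only in mitochondria, Mrpl37 to Mrpl46, Mrpl48 to Mrpl55, Mrpl57, Mrpl58, Mrps18a and Mrps30, 12 had a higher and 10 a lower mean, and the median log2 fold change was 0.015. Mrpl46 read 5.28, 5.03 and 5.07 in Zcchc6+/+ against 4.65, 5.05 and 4.83 in Zcchc6-/-. Zcchc6-/- replicate 2 lay within the Zcchc6+/+ range and the other Zcchc6-/- arrays below it, and the log2 fold change was -0.28 (SE 0.14), or 0.822-fold. Mrpl54 was the 1 member of the large subunit without overlap, at 6.56, 6.23 and 6.23 against 6.22, 6.02 and 6.19, although its groups were separated by 0.0054 only (log2 fold change -0.20, SE 0.13). Mrpl58 differed by 0.051 (SE 0.12), Mrps18a by 0.024 (SE 0.096), Mrpl43 by -0.080 (SE 0.13) and Mrpl57, a short protein added to the mitochondrial large subunit, by 0.11 (SE 0.19).

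Mrps36, the dehydrogenase subunit, had the largest SD within genotypes of all members. It read 4.39, 3.52 and 3.22 in Zcchc6+/+ against 4.62, 2.98 and 4.12 in Zcchc6-/-, with the groups fully interleaved. Its log2 fold change was 0.20 (SE 0.45).

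The members also differed between single arrays, which vary more than the means of 3 arrays compared between genotypes. As a deviation from the mean of the 6 arrays, their median was -0.014, -0.028 and 0.097 in Zcchc6+/+ replicates 1, 2 and 3, and -0.077, 0.066 and -0.0088 in the Zcchc6-/- replicates. In Zcchc6+/+ replicate 3 56 of 76 members were above their own mean and in Zcchc6-/- replicate 2 50 were, compared with 24 in Zcchc6-/- replicate 1. Genes above the median signal moved the same way but less, with medians of 0.016, 0.023 and -0.024 in these 3 arrays. A second quantile normalization and centring of the array medians, both tried after seeing the pattern, left the same 2 arrays highest and the same array lowest.

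The spread was widest in the large subunit proteins found only in mitochondria, whose median deviation was -0.20 in Zcchc6-/- replicate 1, 0.12 in Zcchc6-/- replicate 2 and 0.13 in Zcchc6+/+ replicate 3. Of these 22, 11 had their lowest value in Zcchc6-/- replicate 1 and 0 their highest. That array was often extreme in general, as it was the lowest for 30.0% of genes above the median signal and the highest for 22.7%. The small subunit had medians of -0.035 in Zcchc6-/- replicate 1, 0.038 in Zcchc6-/- replicate 2 and 0.067 in Zcchc6+/+ replicate 3. The array with low members was the one with the T cell markers, and the T cell list was lowest in Zcchc6+/+ replicate 3 (-0.34) and Zcchc6-/- replicate 2 (-0.24), where the members were highest. The part of the T cell signal in this pattern was not tested. Between Zcchc6+/+ replicates 3 and 1, where the T cell list was at -0.34 and 0.19, the median member differed by 0.11, and the median of genes above the median signal by 0.018.

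Between Zcchc6-/- replicates 2 and 1 the median member differed by 0.12, and 54 of 76, or 71.1%, were higher in replicate 2, compared with 55.9% of genes above the median signal. In 12 members the gap was over 0.5, and the share of all genes past that bound was not counted. These were the arrays in which all genes strayed most from their median over the 6 arrays. The distance between the quartiles of that deviation was 0.27 in replicate 1 and 0.23 in replicate 2, against 0.15 to 0.18 in the other arrays. Among the members with a gap over 0.5, it was largest in Mrpl34. The gap was 1.02 in Mrpl34, 0.84 in Mrps2 and 0.79 in Mrpl49, and 0.50 to 0.64 in Mrpl19, Mrpl38, Mrpl39, Mrpl45, Mrpl47, Mrpl50, Mrpl51, Mrpl52 and Mrpl57. Mrpl45, which ties the human mitochondrial ribosome to the inner membrane, read 6.77, 6.77 and 6.96 in Zcchc6+/+ against 6.45, 7.10 and 6.84 in Zcchc6-/-. Mrpl39, whose NRF1 letters are printed above, read 7.68, 7.58 and 7.80 against 7.33, 7.95 and 7.88. In both, Zcchc6-/- replicate 1 was the lowest and Zcchc6-/- replicate 2 the highest of the 6 arrays.

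The opposite gap, below -0.5, was found for Mrps16 (-0.85) and Mrps36 (-1.64) only. Mrps16, a small subunit protein with a bacterial counterpart, read 5.53, 5.73 and 5.38 in Zcchc6+/+ against 6.08, 5.23 and 5.37 in Zcchc6-/-, so that the array with low members gave its highest value. The bound of 0.5 was set after the values were seen.

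**Figure D4:**
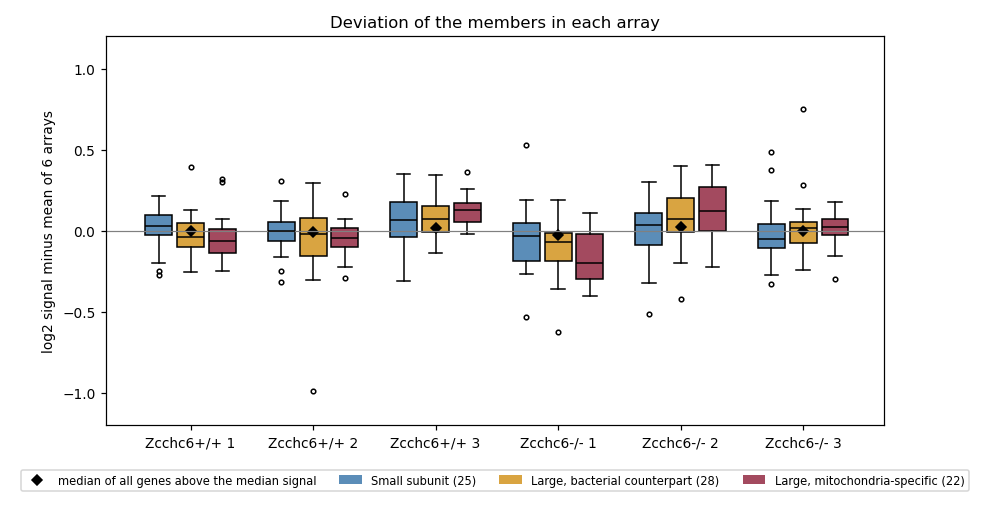
Deviation of the members from their own mean over 6 arrays, as log2 signal, for each array and class of member; boxes span the quartiles with the median as a line, whiskers reach 1.5 times the box height and circles lie beyond, and diamonds are the median of all genes above the median signal. The large subunit proteins found only in mitochondria sit lowest in Zcchc6-/- replicate 1 (median -0.20) and highest in Zcchc6+/+ replicate 3 and Zcchc6-/- replicate 2 (0.13 and 0.12).

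Leaving out single arrays moved the balance of the members. Without Zcchc6-/- replicate 1, 45 of 76 members were higher in Zcchc6-/- and the median log2 fold change was 0.019. Without Zcchc6-/- replicate 2, 23 were higher and the median was -0.067. With either array left out 16 members were without overlap, which was 21.1% of them, against 21.0% and 22.1% of all genes under the same 2 settings. Adjusted p-values of the members stayed at 0.744 or above in limma under every array left out.

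Genes that start head to head with a member were compared with it. There were 20 such pairs, and in 12 of 21 readings, with Mrpl46 and Mrps11 each read as the member, both genes had the same sign of log2 fold change. The share with the same sign among head-to-head pairs of other genes was not counted. Mrpl46 (-0.28) and Mrps11 (-0.11), which share a stretch of 41 bases, were both lower on average. Mrpl18 and its partner Tcp1, a subunit of the cytosolic chaperonin, were at 0.17 and 0.14. An unadjusted p under 0.05 in limma was reached by 2 of 21 partners, compared with 5.03% of all genes. They were Twnk (0.27, SE 0.10) beside Mrpl43 (-0.080) and Ska3, which links spindle microtubules to kinetochores (0.65, SE 0.14, adjusted p = 0.747), beside Mrpl57 (0.11). Ska3 read 4.86, 4.54 and 4.68 in Zcchc6+/+ against 5.22, 5.54 and 5.27 in Zcchc6-/-, all Zcchc6-/- arrays above all Zcchc6+/+ arrays, while Mrpl57 read 5.49, 5.42 and 5.87 against 5.47, 6.05 and 5.57 with overlap. These pairs were examined after the values were seen.

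**Figure D5:**
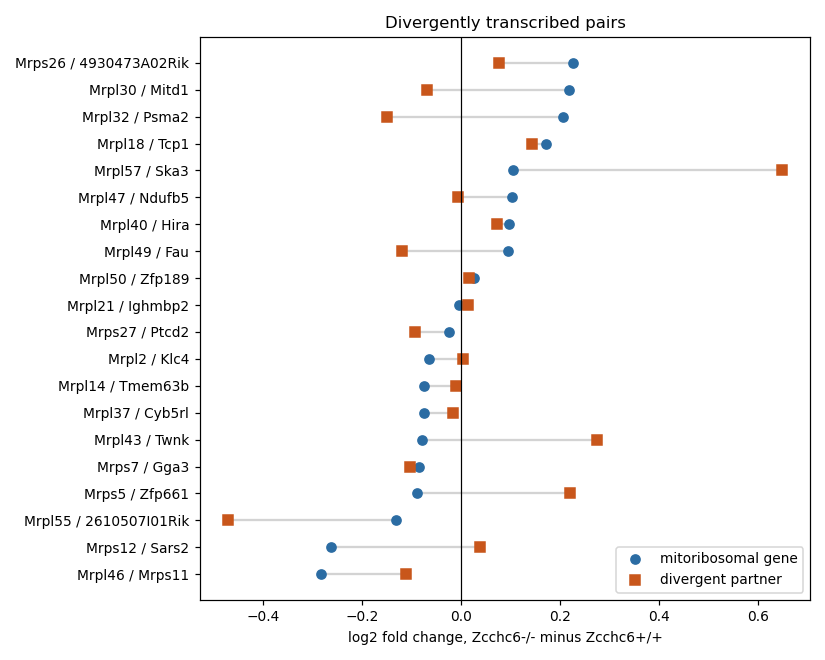
Log2 fold change between genotypes of each member (circle) and of the gene that starts within 500 bases on the opposite strand (square), 1 pair per row, with a grey line joining them. Members lie between -0.28 and 0.23, and the partners farthest from zero are Ska3 (0.65) beside Mrpl57 and 2610507I01Rik (-0.47) beside Mrpl55.

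The other parts of the mitochondrial translation system gave similarly small differences. Of the 5 ribosomal subunits that bear other names, 3 were higher on average and 2 lower, the median log2 fold change was 0.060 and 0 were at an unadjusted p under 0.05. Ptcd3, which takes up mRNA on the small subunit, was at 0.16 (SE 0.11), Chchd1 at 0.13 (SE 0.12) and Aurkaip1 at -0.076 (SE 0.13). The 27 genes of rRNA modification and assembly had a median of -0.033 with 12 higher and 15 lower on average. Among them Mterf4, partner of an rRNA methyltransferase, was at 0.19 (SE 0.10), Tfb1m, which methylates the small subunit rRNA, at 0.22 (SE 0.14) and Gtpbp10, an assembly GTPase, at 0.44 (SE 0.28). Gtpbp10 read 6.57, 5.68 and 6.51 in Zcchc6+/+ against 6.28, 7.05 and 6.74 in Zcchc6-/-, with 1 low Zcchc6+/+ array.

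The 15 measured translation factors had a median of 0.0027 (8 higher, 7 lower on average). The release factor Mtrf1 was at -0.23 (SE 0.11), the RNA-binding protein Slirp at 0.22 (SE 0.14) and the initiation factor Mtif3 at 0.12 (SE 0.11). The 20 genes that charge mitochondrial tRNAs had a median of 0.045, with Yars2 and Fars2, the synthetases for tyrosine and phenylalanine, at 0.14 (SE 0.098) and -0.15 (SE 0.11). None of these 2 lists had a gene at an unadjusted p under 0.05.

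Of the 16 genes of mitochondrial DNA and transcription, 13 had a higher mean in Zcchc6-/-, or 81.2% next to 48.2% of all genes, and the median was 0.065. Over the Zcchc6+/+ mean the list averaged 0.011, 0.18 and 0.015 in Zcchc6-/- replicates 1, 2 and 3, so that replicate 2 stood alone. Its median was 0.0098 when Zcchc6+/+ replicate 2 was left out, 0.028 when Zcchc6-/- replicate 2 was and 0.10 when Zcchc6-/- replicate 3 was. It was 0.027 with the low-signal filter and 0.035 with array weights. Twnk was the 1 gene of the pathway lists at an unadjusted p under 0.05 in limma (adjusted p = 0.974), and read 4.84, 4.94 and 5.07 in Zcchc6+/+ against 5.23, 5.22 and 5.24 in Zcchc6-/-, without overlap. The nuclease Mgme1 (0.26, SE 0.12) and Prorp, the catalytic subunit of mitochondrial RNase P (0.18, SE 0.17), followed. Of 9 regulators, the genes with the smallest p were Esrra, an orphan nuclear receptor of mitochondrial genes, at -0.24 (SE 0.11), Gabpb1, the partner of the ETS factor GABPA, at 0.21 (SE 0.10) and the coactivator Ppargc1a at 0.16 (SE 0.098). Esrra read 6.72, 6.69 and 6.67 against 6.60, 6.36 and 6.39, and Gabpb1 6.71, 6.74 and 6.89 against 6.99, 7.03 and 6.94, both without overlap. Of the 9 regulators 4 (44.4%) were without overlap, 2 higher and 2 lower, compared with 10.2% of all genes. In the other pathway lists the share was 0% to 15.0%. Ppargc1a, 1 of these 4 regulators without overlap, read 2.39 to 2.65 in all arrays, a low signal with no detection call. In these lists 0 genes passed an adjusted p of 0.05 in limma.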

How the data were processed

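The authors hybridized total RNA of lavage cells to Affymetrix Mouse Gene ST 2.0 arrays and deposited log2 values made with RMA in affy 1.36.1 under R 2.15.1, 1 per Entrez gene and array over a custom gene-level probe mapping. RMA subtracts background, gives all arrays 1 distribution and combines probes, so a shift shared by most genes is removed and changes of dim genes are understated. The genome build behind that mapping was not given in the sources used here. Array medians were 4.36 to 4.45, and no array was a copy of another (at most 0.298% identical values). The number of arrays limits the precision.

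Genes were named through the platform annotation and RefSeq, and all 76 members were matched. Every gene was compared, Zcchc6-/- minus Zcchc6+/+, with limma 3.58.1 in R 4.3.3 (lmFit and eBayes, no covariate or filter), with Benjamini-Hochberg adjustment over all 25206 genes. Fits were tested on simulated data. Lists are described by counts and medians, with no test. Members and lists were chosen with earlier results of these data known. By rule the text names the 5 strongest, 5 weakest and 5 most variable members, the Mrps18 paralogs, Mrpl12, Mrps12, Mrps36, Mrpl57 and Mrpl58, and the 3 genes of smallest p in each pathway list, of which 1 is not reported here. The 8 members of smallest p, the members without overlap, those with wide gaps between replicates, and the genes of head-to-head pairs were added after their values were seen. Lists of B cell, NK cell, neutrophil, monocyte, epithelial and erythroid markers had median log2 fold changes of -0.071, -0.17, 0.070, 0.047, 0.19 and 0.073, T cell markers 0.75 and alveolar macrophage markers -0.058. Alternatives were a low-signal filter, trended and robust, weighted or unmoderated variances, further normalization, a replicate block, Xist as a covariate, a looser threshold of 0.25 and each array left out.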

Additional observations from a re-analysis of the deposited data

How the results depend on the processing

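Of 815 values recomputed under the alternatives, 769 were counted as kept in direction, call or size, 25 as changed in sign and 21 as moved. Some list medians counted as kept nevertheless changed sign. The median log2 fold change of the large subunit went from 0.00094 to -0.0032 with the low-signal filter. That of the translation factors went from 0.0027 to -0.0085 with array weights. With 3 arrays per genotype and no detection calls, small or dim changes cannot be resolved.

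No gene passed an adjusted p of 0.05 in limma except that 1, the olfactory receptor gene Olfr43 and no member, did without Zcchc6-/- replicate 1 (0 to 1 over the arrays left out), and 0 passed at the looser threshold of 0.25. Members at an unadjusted p under 0.05 numbered 1 with the low-signal filter, with trended and robust variances and with a second quantile normalization (Mrps12 each time), 1 with Xist as a covariate (Mrpl46), and 2 with array weights (Mrps12 and Mrps6) or unmoderated variances (Mrps12 and Mrps28). Over all genes the shares were 6.17%, 4.88%, 5.07%, 4.83%, 6.93% and 5.30% in that order, each above the members' share. Members numbered 0 to 2 with an array left out (Mrpl36 and Mrps33 without Zcchc6+/+ replicate 1, Mrpl20 and Mrps12 without Zcchc6+/+ replicate 3, and, without Zcchc6-/- replicates 1, 2 and 3, Mrpl30 and Mrps33, Mrpl46, and Mrpl33 and Mrps14), with 3.55% to 6.49% of all genes. Members without overlap numbered 11 to 16 with an array left out, where fewer values have to separate (14.5% to 21.1%, against 17.6% to 22.1% of all genes), and members with a higher mean 23 to 45. Median log2 fold changes ranged, with an array left out, from -0.080 to -0.0022 for the small subunit from -0.070 to 0.057 for the large subunit, from -0.054 to 0.11 for the subunits named otherwise, from -0.052 to 0.032 for rRNA modification, from -0.055 to 0.094 for translation factors, from 0.018 to 0.071 for tRNA charging, from -0.0011 to 0.048 for regulators and from 0.0098 to 0.10 for mitochondrial DNA. The cause of the other changes was not tested.

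Array weights turned the log2 fold changes of Mrps15 (-0.013), Mrps14 (0.043) and Mrps16 (-0.11), and Mrpl24 turned with a second quantile normalization (0.0028) and with centred medians (0.0067). With an array left out the sign changed within these ranges: Mrps15 -0.015 to 0.072, Mrpl24 -0.065 to 0.058, Mrpl23 -0.26 to 0.44, Mrpl58 -0.035 to 0.12, Mrps18a -0.011 to 0.058, Mrps18b -0.012 to 0.064, Mrps36 -0.16 to 0.66, Mrps16 -0.25 to 0.18, Mrps14 -0.48 to 0.016, Mrpl34 -0.38 to 0.13, Mrpl43 -0.16 to 0.011, Mrpl57 -0.072 to 0.24, Sars2 -0.0073 to 0.11 and Aurkaip1 -0.16 to 0.025.

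With the replicate number as a block, 0 members were at an unadjusted p under 0.05 in limma, as without it, and 1067 genes were in place of 1268. Same-numbered arrays deviated together at r = 0.09, -0.23 and 0.05 across genes, so the numbers were not taken as pairs.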
